A study of Mus musculus with 6 samples.

Results

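Integrin subunits and the adaptor proteins that tie them to the actin cytoskeleton were described in LECs, the endothelial cells of lymphatic vessels, taken from mice. The members were 31 genes chosen by symbol, of which 17 encode integrin alpha subunits, 8 beta subunits and 6 adaptors. A probe set was counted as a member's when the platform annotation gave it that gene symbol alone. This gave 65 probe sets for 28 of the 31 genes, out of 45037 probe sets and 18193 genes in the whole table. Itga11, Itgad and Ptk2, which encodes focal adhesion kinase, had no such probe set and were not analysed here. The measured members were 15 alpha subunits, 8 beta subunits and 5 adaptors. Where a gene had several probe sets, the one with the highest mean stands for it (the representative probe set), and the others are given beside it.

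The series held 6 Affymetrix arrays, 1 per sample, with 3 samples of tumour-associated LECs and 3 of LECs from healthy mammary skin. The tumours were subcutaneous xenografts of MDA-MB-435, a human line that served for years in breast cancer work and is now held to derive from a melanoma, and were removed 8 weeks after injection. The healthy skin came from balb-c/nude mice, which lack most T cells for want of a thymus, while the labels give no strain for the tumour hosts, and no age, sex or number of animals for either group. Sections were stained briefly for LYVE-1, which binds hyaluronan on lymphatic endothelium, and the stained cells were cut out by laser capture microdissection, so that captures can hold neighbouring cells. The tumour cells themselves are human, while the arrays carry mouse probes. Samples of a group are called biological replicates, but no animal is named for any of them, so the p-values measure only the spread between these samples.

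Integrins are cell surface receptors made of 1 alpha and 1 beta subunit. The alpha subunit largely sets the ligand, and the tail of the beta subunit binds talin and kindlin, which switch the receptor to its active form and link it to actin through vinculin, paxillin and integrin-linked kinase. In lymphatic endothelium, integrin alpha9 with beta1 is known for its role in the formation of valves, where it binds a splice form of fibronectin. Beta1 integrins are also known to help LECs sense stretch and to promote signalling by VEGFR-3, the receptor for VEGF-C.

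No member probe set passed the threshold (0 of 65 at a limma adjusted p under 0.05, against 0.00444% of all probe sets, which is 2 probe sets). The smallest adjusted p among the members was 0.301, that of Itga9. Values for members are therefore given as measured differences with their errors, and none is called a change. At an unadjusted limma p under 0.05 there were 4 member genes higher in tumour LECs, namely Itga9, Itgb3, Tln1 and Pxn, or 14.3% of the 28, against 3.22% of all genes. There were 3 lower, namely Itgae, Itgb5 and Itgb8, or 10.7%, against 4.28% of all genes. The lower count was 0 with the level of the hybridization controls as a covariate, and 1 without probe sets ending in _x_at or _s_at. By a count that uses no test, all 3 tumour values lay above all 3 healthy-skin values in 7 member genes, or 25% of the 28, against 6.58% of all genes. All 3 lay below in 3, or 10.7%, against 5.36% of all genes. Among genes above background on at least 3 arrays the share with higher values was 7.02%, and 6 of 24 such members had it. The share with lower values there was 6.51%, and 3 of 24 members had it. Of these, Itgb8 met the filter through its 3 healthy-skin arrays alone, and Itgae through 3 healthy-skin arrays and 1 tumour array. This filtered count is therefore no separate support for lower values.

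The members did not share a direction. Over the 28 genes the median log2 difference (tumour minus healthy skin) was 0.26, with 19 positive and 9 negative, against a median of 0.08 over all genes, of which 57.3% were positive. The adaptors had a median of 0.89 with 4 of 5 positive, the alpha subunits 0.21 with 11 of 15 positive, and the beta subunits 0.07 with 4 of 8 positive. Single arrays moved these medians. Without tumour replicate 2 the median was 0.08 over all members, 0.10 over alpha subunits and -0.23 over beta subunits. Without healthy-skin replicate 1 it was 0.41 over alpha subunits and -0.18 over beta subunits, and without healthy-skin replicate 2 it was 0.44 over adaptors and -0.04 over beta subunits. Without healthy-skin replicate 3 it was 0.44 over all members and 0.30 over beta subunits, and without tumour replicate 1 it was 0.41 and 0.25. Processing moved them too, with 0.52 over all members under the hybridization covariate. The beta median was -0.17 with array weights and 0.36 without probe sets ending in _x_at or _s_at, and the adaptor median was 0.55 with the mean of probe sets and 0.51 with a pseudocount of 16.

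**Figure D1:**
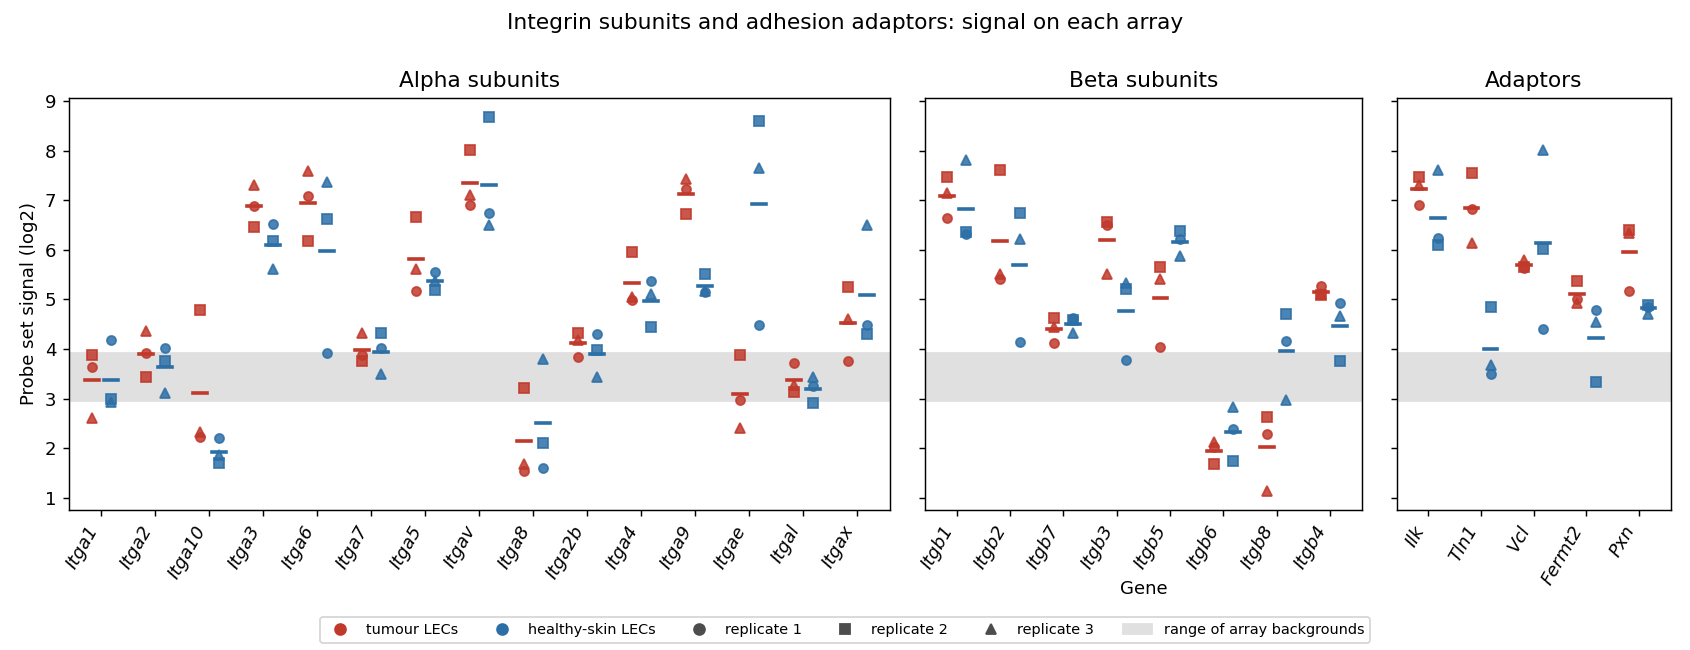
Signal of each measured member (log2, y axis) on the 3 arrays of tumour LECs (red) and the 3 of healthy-skin LECs (blue), with marker shapes for replicates, bars for group means and a grey band for the range of array backgrounds (2.96 to 3.91). All 3 tumour values lie above all 3 healthy-skin values for Itga9, Itga10, Itgb3, Itgb4, Tln1, Fermt2 and Pxn, and below them for Itgae, Itgb5 and Itgb8. Levels of different genes come from different probes and are not comparable.

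**Figure D2:**
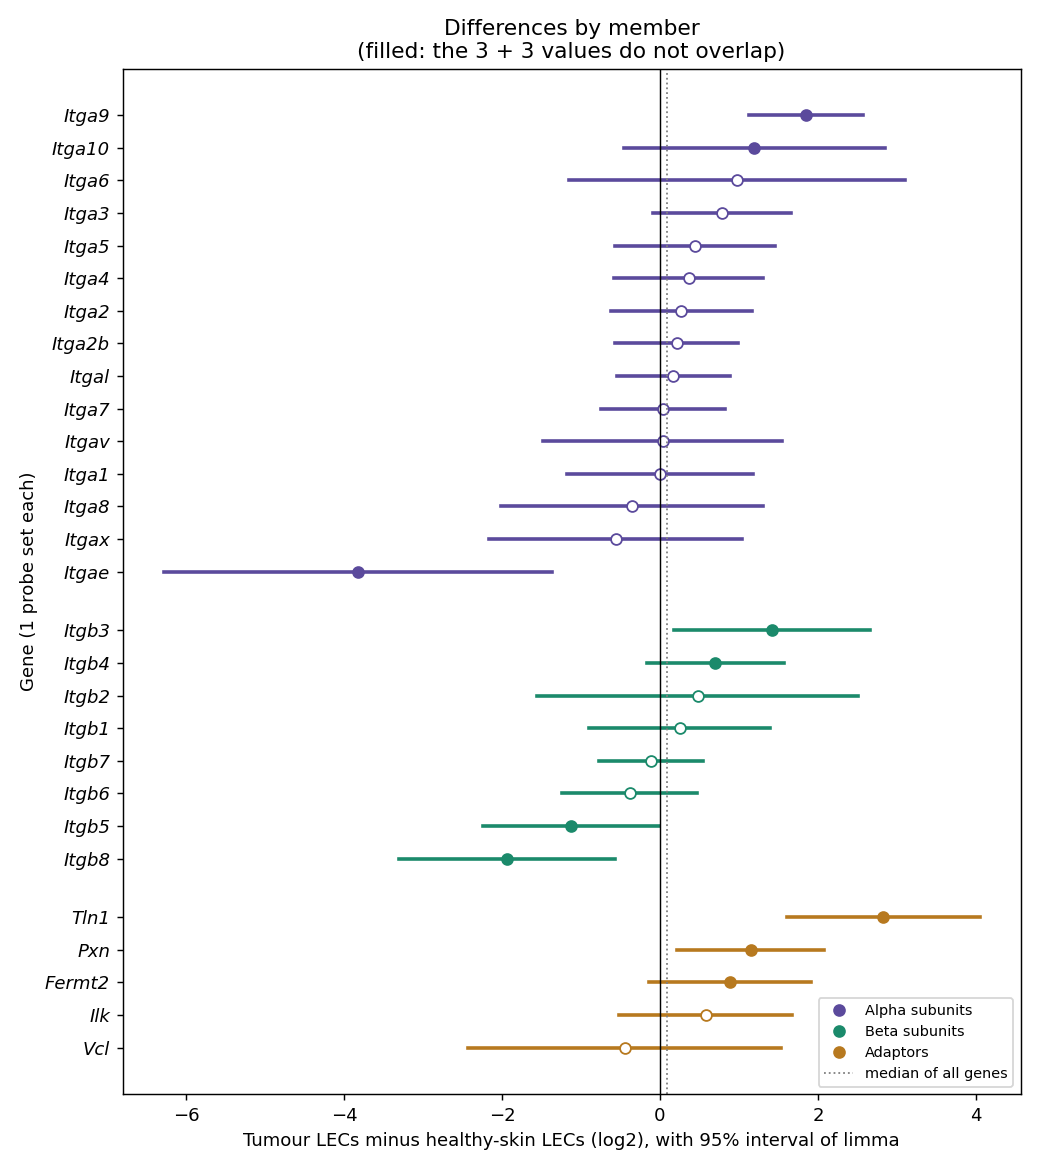
Difference between tumour and healthy-skin LECs for each measured member (log2, x axis) with limma's 95% interval, by role and ordered by size. The intervals of Itga9, Itgb3, Tln1 and Pxn lie above 0 and those of Itgae, Itgb5 and Itgb8 below it, while the other 21 hold 0, and no member passed after adjustment over all probe sets.

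Itga9 encodes the alpha9 subunit, a receptor for tenascin-C, osteopontin and a splice form of fibronectin. Its representative probe set 1460285_at had 7.23, 6.72 and 7.44 (log2) in tumour LECs, against 5.15, 5.52 and 5.17 in healthy-skin LECs. All tumour values stood clear of the healthy-skin values, and the groups were 1.20 apart at the closest point. The difference was 1.85 with a standard error of 0.31, which is 3.60-fold (95% interval 1.12 to 2.58 on the log2 scale, limma adjusted p = 0.301). The other Itga9 probe sets, 1450029_s_at and 1420860_at, differed by 1.29 and 0.96 in the same direction, each with overlapping groups. Of the arrays left out in turn, none took the Itga9 difference outside 1.69 to 2.05.

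Upstream sequences are shown for the members with the smallest limma p among those with a promoter entry. Itgae, Pxn and Itgb3 had a smaller p than Itgb5 but no entry, and the Itgb5 probe sets disagreed in sign. Of the 31 members, 21 had an entry in RefSeq's promoter table, with 24 entries in all, and the 4 measured members with an entry and the smallest p were Itga9, Tln1, Itgb8 and Itgb5. Each sequence is the 250 bases before the annotated start, read 5′ to 3′ on the gene's own strand of GRCm38.p6. Capitals mark matches on either strand to any of 5 motifs, namely the TATA box as TATAAA, the GC box as GGGCGG, the letters CCAAT bound by NF-Y, the ETS core as CCGGAA and the AP-1 site as TGANTCA.
Itga9, chr9:118711442-118711691, plus strand: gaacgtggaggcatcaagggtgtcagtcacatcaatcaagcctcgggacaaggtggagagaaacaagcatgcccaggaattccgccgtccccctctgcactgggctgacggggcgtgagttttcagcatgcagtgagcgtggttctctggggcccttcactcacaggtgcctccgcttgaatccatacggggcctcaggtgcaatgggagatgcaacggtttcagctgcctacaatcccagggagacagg
Tln1, chr4:43562584-43562833, minus strand: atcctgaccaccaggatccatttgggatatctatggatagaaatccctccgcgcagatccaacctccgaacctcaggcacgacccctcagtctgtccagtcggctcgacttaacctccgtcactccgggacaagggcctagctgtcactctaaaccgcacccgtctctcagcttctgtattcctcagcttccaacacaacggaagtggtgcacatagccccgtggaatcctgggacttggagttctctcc
Itgb8, chr12:119238277-119238526, minus strand: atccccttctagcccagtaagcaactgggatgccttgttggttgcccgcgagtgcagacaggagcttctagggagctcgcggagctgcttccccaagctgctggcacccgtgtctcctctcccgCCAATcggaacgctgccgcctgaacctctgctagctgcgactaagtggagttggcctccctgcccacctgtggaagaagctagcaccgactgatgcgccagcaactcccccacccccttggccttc
Itgb5, chr16:33829415-33829664, plus strand: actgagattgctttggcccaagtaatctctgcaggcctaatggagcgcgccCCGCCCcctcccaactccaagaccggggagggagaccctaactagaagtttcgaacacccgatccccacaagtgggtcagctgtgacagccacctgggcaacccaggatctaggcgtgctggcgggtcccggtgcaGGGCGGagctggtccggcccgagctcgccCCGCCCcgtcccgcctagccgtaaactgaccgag

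The 4 sequences differed in these letters. The Itgb5 window held 3 GC boxes and 65.2% G and C, and the Itgb8 window held 1 CCAAT match and 62.4% G and C. The windows of Itga9 and Tln1 held none of the 5 motifs, with 58.4% and 55.6% G and C. Over the 24 member windows, 9 held a GC box, against 32.7% of all 32851 windows, 4 held CCAAT, against 33.8%, and 3 held CCGGAA, against 12.0%. TGANTCA was in 1, against 6.75%, and TATAAA in none, against 12.4%. Itga3, Itgb6 and Ilk are counted with each of their windows, and the Ilk windows overlap and share the same CCGGAA match. The window of Itga11, which was not measured, is also counted. A match is a description of the letters and not of a factor bound there.

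Among the laminin-binding alpha subunits, Itga3 encodes alpha3, a partner of beta1 in basement membrane adhesion of epithelium. Its representative probe set had 6.89, 6.46 and 7.31 (log2) in tumour LECs and 6.52, 6.17 and 5.62 in healthy-skin LECs, a difference of 0.79 with a standard error of 0.37 (limma adjusted p = 0.813). Those groups overlapped by a single tumour value, and the difference was 0.18 with the hybridization covariate. On the other Itga3 probe sets, 1455158_at and 1460305_at, the groups did not overlap, with differences of 1.30 and 1.16 and standard errors of 0.40 and 0.39 (limma adjusted p = 0.661 and 0.709). Itga6 encodes alpha6, a laminin receptor with beta1 in endothelium and with beta4 in hemidesmosomes of keratinocytes. It had 7.08, 6.17 and 7.58 in tumour LECs and 3.93, 6.62 and 7.37 in healthy-skin LECs, where replicate 1 stood far below the others. Its difference of 0.97 had a standard error of 0.89 and was -0.05 without that array, and the other Itga6 probe set differed by 0.23. Itga7, best known from muscle, differed by 0.04 with a 95% interval of -0.75 to 0.83.

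The collagen-binding subunits showed little signal. Itga1 was above background on 2 tumour and 1 healthy-skin arrays and differed by -0.001, with an interval of -1.18 to 1.17. Itga2, the alpha chain of a collagen receptor of platelets and epithelium, was above background on all arrays and differed by 0.27, with an interval of -0.62 to 1.16. Itga10, a cartilage subunit, had 2.23, 4.79 and 2.33 in tumour LECs and 2.22, 1.70 and 1.85 in healthy-skin LECs. Only tumour replicate 2 was above background for Itga10, and the difference of 1.19 was 0.36 without it, so no fold is given.

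The 4 RGD-binding subunits, which recognise the tripeptide in fibronectin and vitronectin, were all measured, and the groups overlapped in each of them. Itga5, the main fibronectin receptor chain, had 5.17, 6.67 and 5.61 in tumour LECs and 5.56, 5.18 and 5.37 in healthy-skin LECs, with tumour replicate 2 highest. It differed by 0.45 with a standard error of 0.43, or by 0.02 without that array, and its other 3 probe sets by 0.78, 0.69 and 1.57, of which the last was not above background on any array. Itgav, the alpha chain shared by several RGD receptors, had 6.91, 8.02 and 7.10 against 6.75, 8.69 and 6.50 in healthy-skin LECs, a difference of 0.03 with an interval of -1.48 to 1.55. Replicate 2 was the highest array in both groups for Itgav. Itga2b, the platelet fibrinogen receptor chain, differed by 0.21 (interval -0.57 to 0.99), and Itga8, a subunit of smooth muscle and kidney mesenchyme, was above background on 1 healthy-skin array alone (difference -0.36). Itga4, the relative of alpha9 that binds VCAM-1, had 4.99, 5.96 and 5.06 in tumour LECs and 5.37, 4.45 and 5.11 in healthy-skin LECs. Its difference of 0.36 had an interval of -0.59 to 1.31, with overlapping groups. Of the other 4 Itga4 probe sets, each above background on 2 arrays or fewer, the differences lay between -0.11 and 1.05.

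The leukocyte subunits had differences of both signs. Itgae encodes alphaE (CD103), which pairs with beta7, binds E-cadherin and marks lymphocytes and dendritic cells in epithelia. Its probe set 1447541_s_at had 2.98, 3.89 and 2.41 in tumour LECs, of which only replicate 2 was above background, against 4.49, 8.61 and 7.65 in healthy-skin LECs. The groups did not overlap, with a difference of -3.82 (limma adjusted p = 0.591), whose size rests in part on tumour signal below background. It was -1.45 with the hybridization covariate and -1.91 with the mean of both probe sets. The second Itgae probe set, 1449216_at, differed by 0.01 with a standard error of 0.28, above background on all arrays, so the probe sets disagree and no fold is given for the gene. Its partner Itgb7 had 4.12, 4.62 and 4.45 in tumour LECs and 4.63, 4.58 and 4.33 in healthy-skin LECs (difference -0.12, interval -0.77 to 0.54). Cdh1, the gene of its ligand E-cadherin, had 5.93, 3.54 and 2.89 in tumour LECs and 6.28, 6.56 and 6.53 in healthy-skin LECs (difference -2.34, limma adjusted p = 0.682).

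Itgb2, the beta chain of the leukocyte integrins, had 5.41, 7.61 and 5.50 in tumour LECs and 4.14, 6.75 and 6.21 in healthy-skin LECs. Replicate 2 was highest in both groups, and the difference of 0.48 had an interval of -1.56 to 2.51. Itgax (CD11c), an alpha chain of dendritic cells and macrophages, had 3.75, 5.25 and 4.60 in tumour LECs and 4.48, 4.31 and 6.50 in healthy-skin LECs, a difference of -0.56 (interval -2.17 to 1.04). Itgal, the alpha chain of LFA-1, was above background on 1 array of each group. Of the 12 leukocyte markers, 11 had positive differences with a median of 0.68, and their mean level was 5.82, 7.79 and 6.33 in tumour LECs and 6.09, 5.80 and 6.24 in healthy-skin LECs. Tumour replicate 2 was thus the highest array for both these markers and Itgb2. Ptprc (CD45), carried by nearly all leukocytes, had 4.10, 7.84 and 5.06 in tumour LECs and 6.37, 6.74 and 7.83 in healthy-skin LECs, and was the single marker with a negative difference. The part of leukocytes in the values of these subunits was not tested.

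Among the beta subunits, Itgb1, the common partner of most alpha chains above, had 6.65, 7.47 and 7.14 in tumour LECs and 6.33, 6.36 and 7.82 in healthy-skin LECs. The groups overlapped, with a difference of 0.25 and an interval of -0.90 to 1.40. Of its other 5 probe sets, those above background on all arrays differed by 0.15 and -0.001, and the remaining ones by between -1.19 and 0.11. Itgb1 thus gave no difference beyond the spread between arrays, while its partner Itga9 had the smallest p of all members.

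Itgb3 encodes beta3, the partner of alphav in a vitronectin receptor of angiogenic endothelium and of alphaIIb in platelets. It had 6.51, 6.55 and 5.52 in tumour LECs, against 3.78, 5.21 and 5.33 in healthy-skin LECs, of which the first was below background. The groups did not overlap, although tumour replicate 3 lay close to healthy-skin replicate 3. The difference was 1.42 with a standard error of 0.52, or 2.68-fold (interval 0.18 to 2.66, limma adjusted p = 0.727), and it was 0.92 without healthy-skin replicate 1 and 2.49 with the hybridization covariate. The second probe set, 1421511_at, had 4.74, 4.03 and 4.50 in tumour LECs and 3.75, 3.49 and 2.56 in healthy-skin LECs, again without overlap, and differed by 1.16. Only 1 of its healthy-skin values was above background. Platelet markers differed by a median of 0.07 over 5 measured genes, 3 of them positive, and Pf4, a platelet chemokine, had 3.57, 4.22 and 3.55 in tumour LECs and 3.67, 3.30 and 2.80 in healthy-skin LECs. That median is the value of Treml1, which was above background on no array. Only Gp9 was above background on all arrays, and it differed by 0.37 with overlapping groups. These markers were thus mostly too dim to describe platelets, whose part in the Itgb3 values was not tested.

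Itgb8 encodes beta8, which with alphav activates latent TGF-beta. It had 2.29, 2.63 and 1.13 in tumour LECs, none above background, against 4.17, 4.71 and 2.97 in healthy-skin LECs, all above background. The groups did not overlap (difference -1.94, standard error 0.58, limma adjusted p = 0.644). Because the tumour values lie below the background, a bound was taken with each tumour array set at its own background. The tumour group mean was then 1.28-fold lower, a value without an error. Healthy-skin replicate 3 (2.97) was barely above its background of 2.96 and below the background of every tumour array (3.42 to 3.91). At that bound the groups therefore overlap. With a pseudocount of 16 the Itgb8 difference was -0.67.

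The Itgb5 probe sets disagreed. Beta5 is another vitronectin-binding partner of alphav, and its representative probe set 1456195_x_at had 4.04, 5.66 and 5.41 in tumour LECs and 6.22, 6.38 and 5.89 in healthy-skin LECs, without overlap (difference -1.12, standard error 0.47, limma adjusted p = 0.781). The other 3 probe sets differed by 0.76, 0.72 and 0.26, with overlapping groups. No direction is therefore given for Itgb5. Itgb6, an epithelial partner of alphav, was above background on none of the arrays.

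Itgb4 encodes beta4, the hemidesmosome chain that pairs with alpha6 and is also present on some endothelium. It had 5.27, 5.09 and 5.11 in tumour LECs, a narrow range, against 4.93, 3.77 and 4.67 in healthy-skin LECs. All tumour values lay above the healthy-skin ones, by 0.16 at the closest point, with a difference of 0.70, a standard error of 0.36 and an interval of -0.17 to 1.57 (limma adjusted p = 0.845). The difference was 0.36 without healthy-skin replicate 2 and 0.32 with the hybridization covariate. Of the other 6 measured hemidesmosome genes 4 had negative differences, with a median of -0.53, and none had groups that did not overlap. Among them Dst, a plakin, differed by -1.61, and Col17a1, a transmembrane collagen, by -1.04, while Cd151, a tetraspanin partner of laminin-binding integrins, differed by 1.85 and the laminin chain gene Lama3 by 1.26. Keratinocyte markers had negative differences in 14 of 15, with a median of -2.37. Their mean levels were 5.79, 5.43 and 4.21 in tumour LECs and 7.06, 7.16 and 7.66 in healthy-skin LECs. All tumour values lay below all healthy-skin values in 8 of the 15, against 5.36% of all genes, but not for Krt5 and Krt14. Krt14 had 9.23, 6.89 and 3.92 in tumour LECs and 8.52, 9.23 and 9.54 in healthy-skin LECs. The part of keratinocytes in the values of Itgb4 was not tested.

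The adaptors were the role with the largest median. Tln1 encodes talin-1, which binds beta tails and activates integrins. Its representative probe set 1448402_at had 6.83, 7.55 and 6.13 in tumour LECs, against 3.49, 4.86 and 3.68 in healthy-skin LECs, of which the first was below background. The groups were 1.28 apart at the closest point, and the difference of 2.83 with a standard error of 0.51, or 7.11-fold, was the largest positive one among the members (interval 1.61 to 4.05, limma adjusted p = 0.329). It was between 2.47 and 3.25 with any 1 array left out. The other Tln1 probe sets, 1457782_at and 1436042_at, differed by 1.07 and 0.80, and the mean over all 3 by 1.56. Of these, 1436042_at was above background on 1 tumour array alone.

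Pxn encodes paxillin, a scaffold of focal adhesions. It had 5.17, 6.40 and 6.33 in tumour LECs, against 4.86, 4.90 and 4.70 in healthy-skin LECs, where the values were close together. The groups did not overlap, with a difference of 1.15 and a standard error of 0.39, or 2.22-fold (limma adjusted p = 0.709). Its other probe sets differed by 0.80 and -0.28 with overlapping groups, and the mean over all 3 by 0.55. Fermt2 encodes kindlin-2, the kindlin of endothelium and other solid tissues, and had 5.0, 5.38 and 4.94 in tumour LECs and 4.79, 3.33 and 4.54 in healthy-skin LECs. These values did not overlap (difference 0.89, standard error 0.43, limma adjusted p = 0.83), and the difference was 0.44 without healthy-skin replicate 2 and 0.45 with the mean of probe sets. Ilk, which encodes integrin-linked kinase, had 6.90, 7.47 and 7.31 in tumour LECs and 6.24, 6.10 and 7.61 in healthy-skin LECs, overlapping through replicate 3 (difference 0.58, interval -0.51 to 1.67). Vcl, which encodes vinculin, had 5.63, 5.66 and 5.80 in tumour LECs and 4.40, 6.02 and 8.01 in healthy-skin LECs. Its tumour values were almost equal while the healthy-skin values spread widely, and the difference was -0.45 with an interval of -2.44 to 1.54, with -0.37 on the second Vcl probe set.

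**Figure D3:**
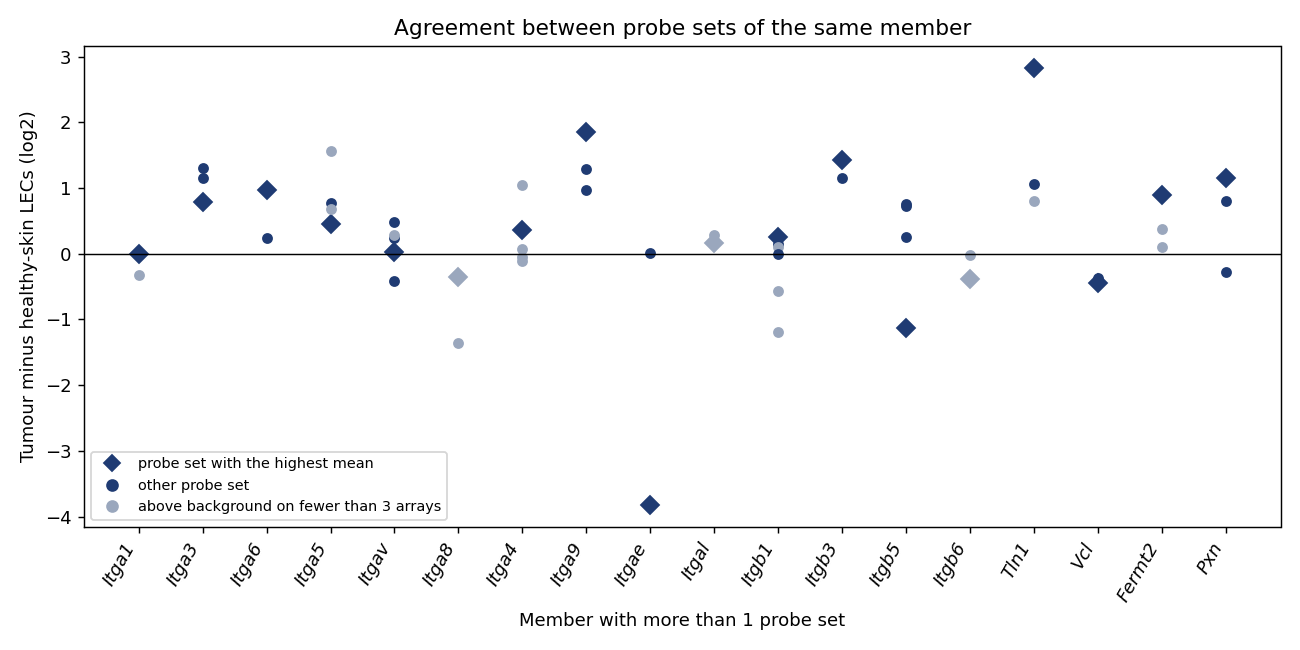
Difference between tumour and healthy-skin LECs (log2, y axis) for every probe set of the 18 members that had more than 1, with diamonds for the probe set of highest mean and pale symbols for probe sets above background on fewer than 3 arrays. All probe sets of Itga3, Itga5, Itga9, Itgb3, Tln1 and Fermt2 lie above 0, whereas those of Itgae and Itgb5 stand on opposite sides of 0 or near it.

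Among the 18 members with several probe sets, all probe sets had the same sign in 12 and mixed signs in 6. Over all 65 member probe sets, 45 differences were positive, or 69.2%, against 55.5% of all probe sets. All tumour values lay above all healthy-skin values in 11 of the 65, or 16.9%, against 6.22% of all probe sets, and below in 3, or 4.62%, against 4.91%. Probe sets of the same gene share their RNA and are not independent. The spread within groups was larger in healthy skin for 20 of the 28 members, with a median standard deviation of 0.56 in tumour LECs and 0.66 in healthy-skin LECs, against 0.42 and 0.47 over all genes. Limma's 95% interval was 2.21 log2 units wide at the median, and for 24 members it reached 1 or -1, a 2-fold difference. Only Itga7, Itga2b, Itgal and Itgb7 had intervals within -1 and 1.

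Other proteins of the adhesion plaque had positive differences in 26 of 32 measured genes, with a median of 0.47. Over all genes 57.3% were positive, and the same share stands beside the counts of the lists below. No gene of this list or of the lists below passed the threshold. At an unadjusted limma p under 0.05 there were 4 of 32 higher and 0 lower, against 3.22% and 4.28% of all genes. Flna, which encodes the actin crosslinker filamin A, had 6.25, 6.80 and 7.05 in tumour LECs and 5.63, 5.25 and 5.14 in healthy-skin LECs (difference 1.36, limma adjusted p = 0.539). Bcar1, the scaffold p130Cas, differed by 1.53, and Git1, a paxillin-binding regulator, by 1.53, again with groups that did not overlap. Actn1, the crosslinker alpha-actinin-1, differed by 2.24 with overlapping groups, and was above background on only 1 healthy-skin array. These 4 genes were named because they had the smallest p of the list.

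Membrane partners of integrins had 9 of 13 positive differences and a median of 0.52. At an unadjusted limma p under 0.05, 1 of the 13 was higher and 2 were lower, against 3.22% and 4.28% of all genes. Emp2, a tetraspan protein, had 5.56, 6.44 and 4.99 in tumour LECs and 7.58, 7.66 and 7.99 in healthy-skin LECs (difference -2.08, limma adjusted p = 0.403). Sdc1, the epithelial proteoglycan syndecan-1, differed by -2.53 and Bsg, the glycoprotein basigin, by 0.81.

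The ligands were described by kind. Of 15 measured basement membrane genes 13 had positive differences, with a median of 1.03. At an unadjusted limma p under 0.05, 3 of the 15 were higher and 0 lower, against 3.22% and 4.28% of all genes. Col4a1, a collagen IV chain, differed by 3.06, its partner Col4a2 by 2.70, the laminin chain gene Lamc1 by 1.51 and the perlecan gene Hspg2 by 0.72. Interstitial ligands had a median of 0.17, with 10 of 18 positive. At that unadjusted p 3 of the 18 were higher and 1 lower, against the same shares of all genes. Relative to its healthy-skin mean, the interstitial list stood at 0.73, 0.61 and -1.11 on tumour replicates 1, 2 and 3. The basement membrane list stood at 1.35, 1.06 and 0.72 on these arrays, so the lists parted most on tumour replicate 3. Of the alpha9 ligands named above, osteopontin (Spp1) was not among the measured genes. Fn1 (fibronectin) had 9.04, 8.60 and 8.47 in tumour LECs and 7.86, 6.74 and 5.62 in healthy-skin LECs (difference 1.96, limma adjusted p = 0.63). Tnc (tenascin-C) had 10.67, 10.84 and 6.73 in tumour LECs and 6.26, 6.83 and 6.85 in healthy-skin LECs, so its difference of 2.76 rested on tumour replicates 1 and 2. Among the same list Ccn1 differed by -2.52 and Ccn2 by 1.25, both matricellular proteins, while Emilin1 and Svep1 differed by only 0.20 and 0.13. The cell surface ligands had 9 of 10 positive differences and a median of 0.40, with Cdh1 as the only negative one. Jam3, a junctional adhesion molecule, differed by 0.85 and Vcam1 by 0.02. Madcam1 and Jam2, ligands of alpha4 integrins, differed by 0.40 each and were above background on no array and on 1 array.

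Markers of the captured cells also differed between the groups. Lymphatic markers had positive differences in 8 of 8 measured genes with a median of 0.99, and pan-endothelial markers in 12 of 12 with a median of 1.17. Their mean levels were 7.62, 7.78 and 7.67 in tumour LECs and 5.90, 6.70 and 6.88 in healthy-skin LECs for lymphatic markers, and 5.83, 5.59 and 5.82 against 4.34, 4.42 and 4.62 for pan-endothelial markers. Every tumour array was above every healthy-skin array in both lists. Cdh5 (VE-cadherin) differed by 2.10, the lymphatic marker Pdpn (podoplanin) by 1.04 and Pecam1 by 0.78, beside 1.85 for Itga9. In these captures fewer cells of a type and less RNA per cell cannot be told apart, and the part of the share of endothelial cells in the values of Itga9, Tln1 and the other members was not tested.

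**Figure D4:**
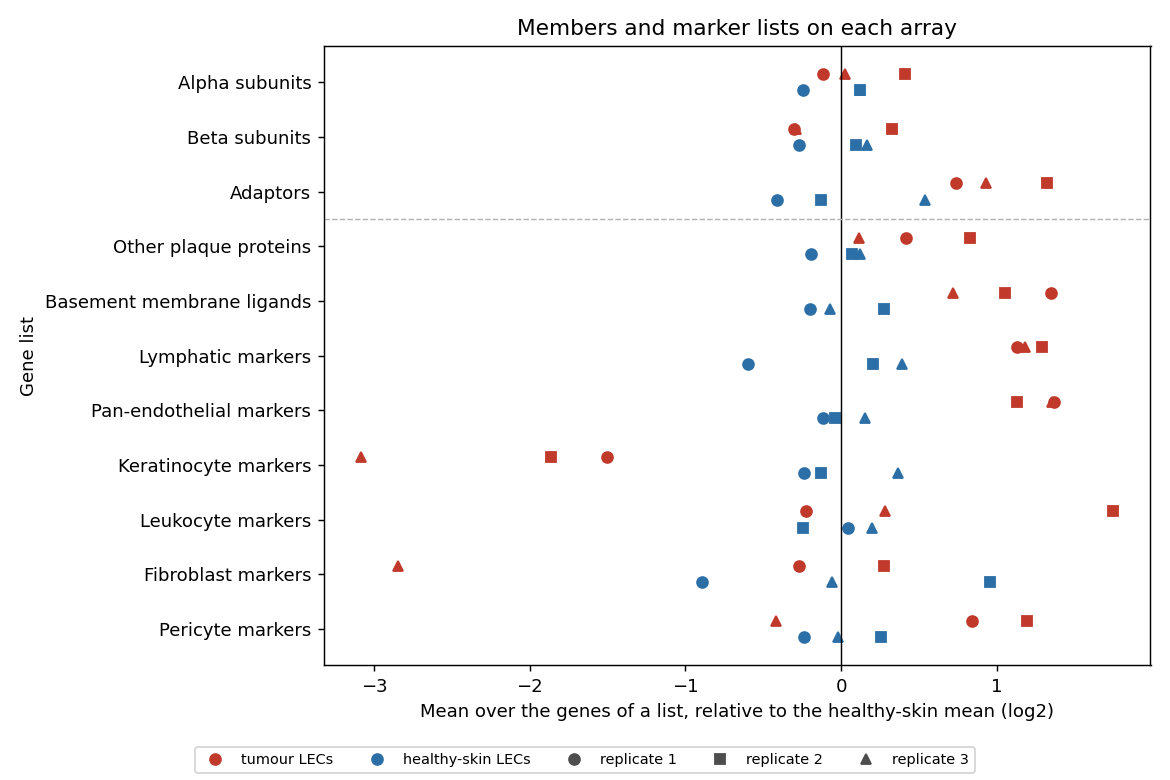
Mean over the genes of each list on each array, relative to the healthy-skin mean of the same list (log2, x axis), with red for tumour LECs, blue for healthy-skin LECs and marker shapes for replicates. Adaptors and endothelial markers stand higher on all 3 tumour arrays (0.74, 1.32 and 0.93 for adaptors, with healthy-skin replicate 3 at 0.54). The adaptor mean covers 5 genes and leans on Tln1 (difference 2.83), while the groups overlap for Ilk and Vcl. The alpha and beta subunits overlap between the groups, and keratinocyte markers are lower (-1.50, -1.87 and -3.08).

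Markers of other cells differed less evenly. Fibroblast markers had 7 of 8 negative differences with a median of -0.96, and mean levels of 8.22, 8.76 and 5.64 in tumour LECs and 7.59, 9.44 and 8.43 in healthy-skin LECs, so that tumour replicate 3 stood lowest. Pericyte and smooth muscle markers had 7 of 10 positive with a median of 0.60. Adipocyte markers had 3 of 6 positive with a median of -0.07, and skeletal muscle markers 5 of 6 with 0.47. Krt10, Krt5 and Lyve1 are given per array, as markers of keratinocytes and of the stained cells. Krt10, a keratin of upper epidermis, had 6.37, 3.94 and 3.92 in tumour LECs and 9.14, 9.55 and 10.28 in healthy-skin LECs. Its difference of -4.91 was the largest of the keratinocyte list. Krt5, another keratin, had 10.53, 9.02 and 6.50 in tumour LECs and 10.74, 10.02 and 10.02 in healthy-skin LECs, with overlapping groups. Lyve1 had 9.64, 9.41 and 9.65 in tumour LECs and 3.21, 7.58 and 6.81 in healthy-skin LECs, with replicate 1 below background, and the same array was the lowest of all 6 for Itga6, Itga9, Itgb1, Itgb2, Itgb3, Tln1 and Vcl among the members. Background, for which the 95th percentile of the 27 bacterial controls was used, lay between 3.42 and 3.91 on tumour arrays and between 2.96 and 3.81 on healthy-skin arrays, and 39.6% to 48.4% and 41.7% to 56.0% of probe sets were above it. Of the 28 measured members, 19 were above background on all 6 arrays, 8 on some and 1, Itgb6, on none.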

How the data were processed

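RNA was amplified by 1 round of Ribo-SPIA before hybridization, per the labels' protocols. The deposited values were read as linear intensity, since array medians lay between 9.49 and 10.93 and values reached 33063, and the submitters' processing notes name RMA. The software, its version and the probe set definitions are not stated in the labels or file header. Amplification from few cells adds spread between samples, and RMA removes overall differences between arrays. Log2 was taken of the deposited values as they stood. After 64 control probe sets were set aside, the remaining 45037 were tested with limma 3.58.1 in R 4.3.3 (lmFit, eBayes, two-sided, 3 arrays per group, no block), with Benjamini-Hochberg adjustment over all of them and a threshold of 0.05. The procedure was also run on simulated data with noise independent between probe sets and arrays. That run holds no shared capture or array effects, so it cannot show how the procedure treats them. Gene names came from platform annotation with a single symbol (34945 probe sets). Named genes were all 31 members, up to 4 genes with the smallest p of each pathway list, and defining markers of the cells the captures could hold. The members, lists and tests were chosen with earlier results of these data known, so no pattern here is independent support of them. Lists are described by counts and medians alone. The number of arrays limits the precision. Alternatives covered dim probe sets, normalization, pseudocounts, the replicate number as a block, the variance model, array weights, hybridization controls, probe set choice and each array left out.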

Additional observations from a re-analysis of the deposited data

How the results depend on the processing

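In all 17 alternatives 0 members passed the limma threshold, and 24 of 28 could be tested without dim probe sets; the adjusted p of Itga9 lay between 0.135 and 0.739 and that of Tln1 between 0.197 and 0.745. The differences of 13 members, among them Itga9, Tln1, Itgb3, Pxn and Itgb8, kept their sign under every alternative, and 15 turned at least once. The count over all probe sets was unstable. Against 2 higher and 0 lower, limma called 7 and 15 with array weights, 6 and 15 without dim probe sets, 1 and 1 after quantile normalization, 1 higher without probe sets ending in _x_at or _s_at or with trend and robust options, and 0 after centring, with a pseudocount of 16, with the replicate block or with the hybridization covariate. With 1 array left out it called 0 to 9 higher and 0 to 14 lower, the most without tumour replicate 2. The 3 members lower at an unadjusted p under 0.05 were 0 with the covariate and 1 without _x_at or _s_at probe sets, where 1 in place of 3 also had lower groups without overlap. The adaptor median lay between 0.44 and 1.17 with 1 array left out. Signs turned with array weights for Itga1 (0.26), Itga7 (-0.16), Itgav (-0.74) and Itgb2 (-0.30), after centring for Itga7 (-0.00031) and Itgav (-0.0042), with the covariate for Itga2 (-0.34), Itga7 (-0.20), Itga8 (0.96), Itga2b (-0.0038), Itgax (0.26) and Vcl (0.88), with the mean of probe sets for Itgb1 (-0.21) and Itgb5 (0.15), and without _x_at or _s_at for Itgae (0.012) and Itgb5 (0.76). With 1 array left out the ranges that crossed 0 were -0.25 to 0.41 for Itga1, -0.023 to 0.41 for Itga2b, -0.047 to 1.67 for Itga6, -0.19 to 0.23 for Itga7, -0.89 to 0.29 for Itga8, -0.0018 to 0.29 for Itgal, -0.37 to 0.72 for Itgav, -0.95 to 0.14 for Itgax, -0.0034 to 0.74 for Itgb1, -0.31 to 1.00 for Itgb2, -0.23 to 0.022 for Itgb7 and -1.32 to 0.48 for Vcl. The cause was not tested. Same-numbered samples deviated together weakly (r = 0.04, 0.10 and -0.01). The labels do not say whether the numbers mark pairs, and with 3 arrays per group these values cannot decide it. The replicate block called 0 probe sets. Signal over background limits Itga1, Itga8, Itga10, Itgae, Itgal, Itgb3, Itgb6, Itgb8 and Tln1, which were not above it on all arrays.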
